A study of Homo sapiens with 9 samples.

Results

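A list of 40 genes of the apoptosis machinery was followed across an array experiment on the histone acetyltransferase MOF, encoded by KAT8, which acetylates lysine 16 of histone H4. It named BCL2 family genes, caspases, caspase inhibitors and their partners, and each gene was read from the probe set annotated to its symbol alone that had the highest mean over the 9 arrays. Of the 40 genes, 38 had such a probe set, BIRC3 and RIPK1 being the exceptions in the annotation used here, and 37 passed the filter on dim probe sets and were tested, out of 12036 genes tested in all. CASP4 was the member below the filter, with signals of 35.4 to 89.9 in knockdown, 6.0 to 85.2 in overexpression and 10.8 to 81.5 in wild type arrays. All groups were HEK293, an established human embryonic kidney line carrying adenoviral sequence, grown in the same serum-containing medium. The knockdown group had received small interfering RNA against MOF, the overexpression group had been transfected with a plasmid encoding human MOF, and the wild type group was untreated, as the design text describes it, with 3 arrays in each. If so, the effect of transfection and that of the change in MOF cannot be told apart in a comparison with them, and the comparison of knockdown with overexpression sets small interfering RNA against plasmid as well as low against high MOF. The design text also names controls given double-stranded RNA against a fluorescent protein, and none of the 9 samples is labelled as one, so what those controls were used for is not known here.

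Apoptosis runs along an intrinsic and an extrinsic route. In the intrinsic route, BH3-only proteins sense stress and bind prosurvival BCL2 proteins or activate the effectors of the BAX and BAK type, which open the outer mitochondrial membrane and release cytochrome c and other proteins. Cytochrome c and APAF1 then assemble the apoptosome, which activates CASP9. In the extrinsic route, death receptors of the tumour necrosis factor family recruit FADD and CASP8. Inhibitor of apoptosis proteins restrain the caspases, and nucleases cut the nuclear DNA at the end. HEK293 cells carry adenoviral early genes, among them an inhibitor of apoptosis that resembles BCL2, which is not among the members.

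The signals are linear, globally scaled intensities on which log2(signal + 1) was compared with limma, and adjusted p means Benjamini-Hochberg adjustment over all 27307 probe sets tested. KAT8 had signals of 432, 706 and 517 in knockdown, 4594, 4727 and 4763 in overexpression and 2910, 3797 and 3249 in wild type arrays, in the order of replicates 1 to 3, so the knockdown arrays were low (log2 -2.61 against wild type, limma adjusted p = 4.72e-05) and the overexpression arrays high, though 0.51 against wild type did not pass (limma adjusted p = 0.259). The 3 arrays of replicate 1, 1 of each group, stood apart in added control transcripts, which were 2.23-fold brighter in the other 6 arrays, so differences within replicate 1 and within replicates 2 and 3 are given beside the results. The ratio of 3′ to 5′ signal of ACTB, a sign of RNA integrity, ran from 1.21 to 1.31 in knockdown, 1.18 to 1.38 in overexpression and 1.39 to 1.43 in wild type arrays. That of GAPDH overlapped among the groups, at 0.996 to 1.111, 0.981 to 1.108 and 0.990 to 1.035 in the same order. The part of RNA integrity in the differences from wild type was not tested. All 8 of a list of markers of HEK293 cells passed the filter, with summed signals of 100337 to 114792 in knockdown, 93164 to 112288 in overexpression and 100995 to 107262 in wild type arrays. Against wild type after knockdown, PAX2 and KRT8 fell (log2 -1.07 and -0.57), ENO2 rose (0.69, limma adjusted p = 0.0495), and the other 5 did not pass. Against overexpression, PAX2, KRT8 and KRT18 were lower in knockdown cells (log2 -1.66, -1.18 and -0.45), and the other HEK293 markers did not pass. Their limma adjusted p values were 0.000611 for PAX2, 0.000681 for KRT8 and 0.00912 for KRT18. Of 5 blood cell markers 1 passed the filter, and PTPRC and CD14, which define white blood cells, lay below it. Of 6 fibroblast and endothelial markers 3 passed the filter. The summed signal of all 6 was 1920 to 2442 in knockdown, 2603 to 3703 in overexpression and 2720 to 3051 in wild type arrays. COL3A1 was lower in knockdown than in wild type cells (log2 -1.01, limma adjusted p = 0.046). It was also lower in knockdown than in overexpression cells (log2 -1.18, limma adjusted p = 0.0263). The part of these markers in the results was not tested. Nothing in the labels says that replicates were cultured apart, so a p-value here reflects the scatter among the arrays, part of which may be technical. In bulk RNA, fewer cells that express a gene and less of its RNA per cell cannot be told apart.

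The 11 members that passed in a comparison were 8 genes of the BCL2 family, the receptor gene TNFRSF12A and the DNA fragmentation genes AIFM1 and DFFA. After knockdown 3 members rose against wild type (MCL1, BCL2L12 and TNFRSF12A) and 4 fell (HRK, BCL2L13, AIFM1 and DFFA). Against overexpression, BCL2L11 and BCL2L12 were higher in knockdown cells, and BOK, BID, HRK, PMAIP1, BCL2L13 and DFFA were lower. After overexpression PMAIP1 and TNFRSF12A rose against wild type and none of the others passed. These are 7, 8 and 2 of 37 members, and whether the roles differ was not tested.

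The counts are read against the share of probe sets called in the whole table, which was 15.7% for knockdown against wild type, 14.5% for knockdown against overexpression and 0.476% for overexpression against wild type. Taken with 1 probe set per gene, as for the members, it was 19.4%, 18.4% and 0.631% of the 12036 genes. Of all probe sets 4289 and 3963 passed in the comparisons of knockdown, and 7637 and 7334 once the replicate number was a block. The members' shares of 18.9% and 21.6% in the comparisons of knockdown lay near that background. By direction, 3 rose and 4 fell after knockdown against wild type, where 6.7% of all genes were higher and 12.7% lower, and 2 were higher and 6 lower against overexpression, where the shares were 6.22% and 12.1%. After overexpression the 2 members called were 5.41% of the 37, both higher, where 0.457% of all genes were higher and 0.174% lower. That background depended on the fit. With a term for replicate 1 alone, 1109 of 27307 probe sets passed after overexpression, where 130 had without it, and 3 members were called. The arrays of the 2 groups did not overlap for 15 of 37 members between knockdown and wild type, 18 between knockdown and overexpression and 7 between overexpression and wild type, beside 39%, 37.9% and 19.1% of all genes. The median log2 fold change of the members was -0.10 for knockdown against wild type, against -0.04 over all genes, -0.14 for knockdown against overexpression, against -0.05, and 0.05 for overexpression against wild type, against 0.00. Knockdown and overexpression share the wild type arrays, and each shares its own arrays with the direct comparison, so their values are set side by side below and not correlated. Leaving out an array changed these counts. It also changed the counts over all probe sets, whose ranges are given with the dependence on processing, so the losses are not particular to the members. Each such fit also has fewer arrays to estimate the spread, even where the array left out is of the group not compared. After knockdown against wild type 2 members passed without knockdown replicate 2, 4 without knockdown replicate 3, and 3 without wild type replicate 2 or overexpression replicate 3. Against overexpression it was 2 without knockdown replicate 2, 3 without overexpression replicate 3, 4 without knockdown replicate 3 or overexpression replicate 1, and 5 without overexpression replicate 2 or wild type replicate 2. After overexpression 1 passed without overexpression replicate 1 or 3 or wild type replicate 2 or 3.

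**Figure D1:**
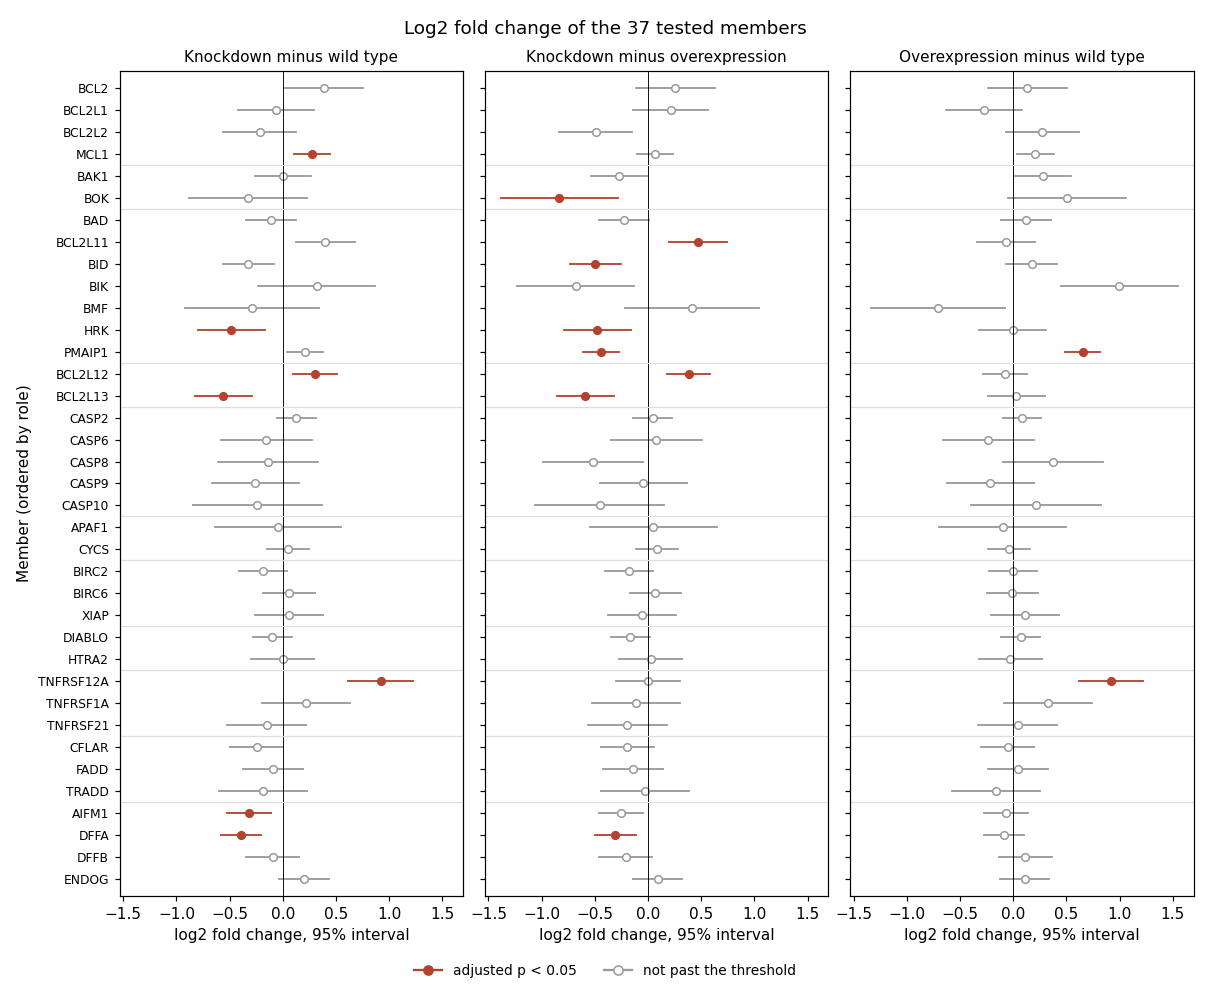
Log2 fold change (horizontal axis) with its 95% interval for each of the 37 tested members (vertical axis, ordered by role, with grey lines between roles) in the 3 comparisons; filled red points have adjusted p under 0.05. The 7 calls for knockdown against wild type and the 8 for knockdown against overexpression lie within the BCL2 family, TNFRSF12A and the DNA fragmentation genes, and no caspase or inhibitor of apoptosis is among them.

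PMAIP1, which encodes the BH3-only protein NOXA, an antagonist of MCL1, had signals of 25301, 23776 and 22017 in knockdown arrays, 31998, 34135 and 30537 in overexpression arrays and 21586, 20442 and 19506 in wild type arrays. The 3 groups did not overlap, with overexpression highest and wild type lowest. It rose 1.57-fold after overexpression (log2 0.65 with SE 0.08, 3 arrays in each group, limma adjusted p = 0.00558), and was 1.36-fold lower in knockdown than in overexpression cells (log2 -0.44, SE 0.08, limma adjusted p = 0.00404). Both calls held whichever of the 9 arrays was left out. Knockdown against wild type gave 0.21 (95% interval 0.04 to 0.38, limma adjusted p = 0.0908), and 0.0191 with the replicate number as a block. The gene's other probe set changed in the same directions, by 0.90 after overexpression (limma adjusted p = 0.00291), by -0.58 between knockdown and overexpression (limma adjusted p = 0.00335) and by 0.32 after knockdown against wild type (limma adjusted p = 0.0432). PMAIP1 was the only member past the threshold both after overexpression and between the treated groups.

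The promoter of PMAIP1 is shown because this was the BH3-only gene that rose after overexpression, and those of BCL2L11 and HRK because these BH3-only genes moved in opposite directions between knockdown and overexpression. Each is the 250 bases before the annotated start in RefSeq (GRCh38.p14), with matches to the GC box GGGCGG and to TGACGT, the core of the cyclic AMP response element, in capitals on either strand.
PMAIP1, chr18:59899746-59899995, + strand: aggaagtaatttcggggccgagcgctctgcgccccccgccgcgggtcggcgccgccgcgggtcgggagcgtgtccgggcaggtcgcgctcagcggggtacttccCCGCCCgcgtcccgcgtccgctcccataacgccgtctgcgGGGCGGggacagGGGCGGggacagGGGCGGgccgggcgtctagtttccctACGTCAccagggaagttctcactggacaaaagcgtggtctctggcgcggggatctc
BCL2L11, chr2:111120664-111120913, + strand: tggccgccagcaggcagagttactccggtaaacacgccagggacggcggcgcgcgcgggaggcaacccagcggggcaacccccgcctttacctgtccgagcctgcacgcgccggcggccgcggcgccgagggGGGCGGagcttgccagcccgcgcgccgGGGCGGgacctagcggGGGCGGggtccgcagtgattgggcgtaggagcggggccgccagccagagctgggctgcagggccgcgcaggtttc
HRK, chr12:116881442-116881691, - strand: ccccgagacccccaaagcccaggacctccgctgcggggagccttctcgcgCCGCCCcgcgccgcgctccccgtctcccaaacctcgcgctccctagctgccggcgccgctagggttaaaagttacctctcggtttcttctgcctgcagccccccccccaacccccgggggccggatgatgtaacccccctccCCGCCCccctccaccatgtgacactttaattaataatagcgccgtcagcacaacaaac
The PMAIP1 window held 1 match to TGACGT, read on the opposite strand and beginning at position -56 from the start, where 7.1% of all 35116 windows of this length hold at least 1, and 4 matches to GGGCGG, which 42.6% of the windows hold. BCL2L11 had 3 matches to GGGCGG and 1 to GCGNGGGCG, the motif of EGR1, at position -79, which overlaps a GC box and which 8.41% of windows hold. HRK had 2 matches to GGGCGG. No match to TGANTCA (AP-1) or to CACGTG (E-box) was found in the 3 windows, and 6.57% and 6.34% of all windows hold one. These are matches of letters only. Of the 11 members past the threshold in a comparison, 9 had a promoter entry, 6 of them a single one.

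BCL2L11, the gene of BIM, a BH3-only protein that binds all prosurvival members, had signals of 4352, 4338 and 4108 in knockdown arrays, 3407, 2731 and 3148 in overexpression arrays and 2870, 3810.1 and 3081 in wild type arrays. All 3 knockdown arrays lay above the 6 others. It was 1.38-fold higher in knockdown than in overexpression cells (log2 0.47, SE 0.12, n = 3 per group, limma adjusted p = 0.0292), and the value against wild type was 0.40 (95% interval 0.13 to 0.67, limma adjusted p = 0.0508), or adjusted p = 0.0206 with the replicate number as a block. The call against overexpression ended without any of the knockdown replicates, or overexpression replicate 2 or 3, with adjusted p as high as 0.0905. The array carries 7 tested probe sets for this gene. After knockdown all 7 were above 0 against wild type, from 0.36 to 0.77 on the log2 scale, and 3 passed, against 4 of 7 that passed between knockdown and overexpression. The most changed of them had signals of 1023, 952 and 1032 in knockdown arrays, 638, 571 and 577 in overexpression arrays and 602, 581 and 582 in wild type arrays, and rose by 0.77 against wild type (SE 0.14, limma adjusted p = 0.00454). One probe set went against the others between knockdown and overexpression, at -0.19.

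BID links the extrinsic to the intrinsic route, since CASP8 cleaves it into an activator of the effectors. Its signals were 4159, 3859 and 4033 in knockdown arrays, 6581, 4993 and 5531 in overexpression arrays and 5336, 5021 and 4734 in wild type arrays, so the knockdown arrays were the 3 lowest. It was 1.41-fold lower in knockdown than in overexpression cells (log2 -0.50, SE 0.11, limma adjusted p = 0.0127), a call lost only without knockdown replicate 2 (adjusted p = 0.0525) among the fits that left out 1 array. Against wild type the value was -0.32 (95% interval -0.56 to -0.08, limma adjusted p = 0.0678), and 0.0102 with the replicate block. A second probe set had 2224, 2014 and 1838 in knockdown arrays, 3814, 3606 and 3540.2 in overexpression arrays and 2599, 2749 and 2854 in wild type arrays, with no overlap among the 3 groups. It fell by 0.85 between knockdown and overexpression (SE 0.10, limma adjusted p = 0.000672) and by 0.44 against wild type (limma adjusted p = 0.0176). The 3 tested probe sets of BID were all below 0 in both comparisons of knockdown.

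HRK, the gene of the BH3-only protein harakiri, had signals of 1111, 865 and 1040 in knockdown arrays, 1394, 1406 and 1376 in overexpression arrays and 1559, 1475 and 1188 in wild type arrays. The knockdown arrays lay below the 6 others. It fell by 0.48 after knockdown against wild type (SE 0.14, limma adjusted p = 0.0438) and by 0.48 against overexpression (limma adjusted p = 0.0482). Its 4 tested probe sets were all below 0 in both comparisons, from -0.74 to -0.36 against wild type. The call against wild type ended without knockdown replicate 2 or 3, wild type replicate 1 or 2 or overexpression replicate 2 or 3, with adjusted p as high as 0.154. With all probe sets of the gene averaged, dim ones included, neither -0.23 against wild type nor -0.10 against overexpression passed (limma adjusted p = 0.63 and 0.849). That against overexpression ended without knockdown replicate 2 or 3, any overexpression replicate or wild type replicate 2 (adjusted p up to 0.172).

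Of the 7 BH3-only genes, 1 fell and none rose after knockdown against wild type, 1 was higher and 3 were lower against overexpression, and 1 rose after overexpression. These are 14.3%, 57.1% and 14.3% of 7 genes, beside 19.4%, 18.4% and 0.631% of all genes, and with so few genes no difference from the rest was tested. BIK, which acts at the endoplasmic reticulum, had signals of 316, 286 and 503 in knockdown arrays, 638, 544 and 538 in overexpression arrays and 232, 295 and 341 in wild type arrays. The overexpression arrays lay above the 6 others, but a log2 difference of 1.00 from wild type (95% interval 0.45 to 1.55) did not pass (limma adjusted p = 0.133). The limma adjusted p of this difference was 0.0433 with the replicate block. From replicates 2 and 3 alone the difference was 0.77 (limma adjusted p = 0.26). BAD, which growth factor signalling restrains by phosphorylation, and BMF, which is tied to the cytoskeleton, did not pass in any comparison. BAD ran from 2550.0 to 2935 in knockdown, 3058 to 3500.3 in overexpression and 2764 to 3237 in wild type arrays. BMF was uneven, with 343 to 591 in knockdown, 236 to 499.6 in overexpression and 494 to 597 in wild type arrays.

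MCL1, a short-lived prosurvival protein and the main partner of NOXA, had signals of 22512, 22496 and 20359 in knockdown arrays, 22578, 19821 and 20055 in overexpression arrays and 18851, 17521 and 17591 in wild type arrays. Both treated groups lay above the wild type arrays and overlapped each other. It rose 1.21-fold after knockdown (log2 0.28, SE 0.08, n = 3 per group, limma adjusted p = 0.035), and the value after overexpression was 0.21 (95% interval 0.04 to 0.38, limma adjusted p = 0.307). Between knockdown and overexpression the difference was 0.07 (95% interval -0.10 to 0.24). All 5 tested probe sets of MCL1 were above 0 in both comparisons with wild type, and 3 passed after knockdown, with log2 fold changes up to 0.50. The call of the brightest ended without knockdown replicate 1 or 2, wild type replicate 2 or 3 or overexpression replicate 3 (adjusted p up to 0.12). MCL1 was the only one of 4 prosurvival genes to pass in any comparison.

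BCL2, the founding member, had signals of 600.2, 609 and 600.3 in knockdown arrays, 459, 580.3 and 483 in overexpression arrays and 425, 514 and 447 in wild type arrays. The knockdown arrays were the 3 highest, but neither 0.39 against wild type (95% interval 0.02 to 0.76, limma adjusted p = 0.145) nor 0.26 against overexpression passed. BCL2L2, the gene of BCL-W, had 989, 956 and 962 in knockdown arrays, 1452, 1217 and 1430.3 in overexpression arrays and 1286, 1237 and 900.3 in wild type arrays. Its difference between knockdown and overexpression was -0.49 (limma adjusted p = 0.0571, and 0.0251 with the replicate block). BCL2L1, the gene of BCL-XL, overlapped in all comparisons, with 912 to 1170 in knockdown, 752 to 995 in overexpression and 985 to 1234 in wild type arrays.

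BOK, an effector of the BAX type, lay near the filter on dim probe sets, with signals of 145, 202 and 168 in knockdown arrays, 360.0, 276 and 283 in overexpression arrays and 233, 202 and 207 in wild type arrays. It was 1.78-fold lower in knockdown than in overexpression cells (log2 -0.83, SE 0.25, limma adjusted p = 0.0476), but the call ended whichever of the 9 arrays was left out (adjusted p up to 0.146), and the difference was -1.31 in replicate 1 and -0.60 in replicates 2 and 3. BAK1, the effector that sits in the mitochondrial membrane, had 1738, 1884 and 2099 in knockdown arrays, 2287, 2158 and 2473 in overexpression arrays and 1711, 2035 and 1964 in wild type arrays. Its overexpression arrays were the 3 highest, and neither 0.28 against wild type (limma adjusted p = 0.379) nor -0.28 between knockdown and overexpression (limma adjusted p = 0.15) passed.

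The 2 other BCL2-like genes moved in opposite directions after knockdown. BCL2L12, a BCL2-related protein, had signals of 5754, 5582 and 5579.7 in knockdown arrays, 3969, 4622 and 4426 in overexpression arrays and 4949, 4319 and 4463 in wild type arrays, with the knockdown arrays above the 6 others. It rose by 0.30 against wild type (SE 0.09, limma adjusted p = 0.0494) and was higher by 0.38 against overexpression (limma adjusted p = 0.0208). The first call ended without any of the knockdown replicates, wild type replicate 2 or 3 or overexpression replicate 3, with adjusted p as high as 0.165. The second ended without any of the knockdown replicates or overexpression replicate 1 or 3 (adjusted p up to 0.0637).

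BCL2L13, a protein of the outer mitochondrial membrane that also acts in the removal of mitochondria, had signals of 2599, 2694 and 2732 in knockdown arrays, 3369, 4442 and 4361 in overexpression arrays and 3548, 4074 and 4235 in wild type arrays. The knockdown arrays were low and close together. It fell 1.47-fold against wild type (log2 -0.56, SE 0.12, n = 3 per group, limma adjusted p = 0.0122) and was 1.5-fold lower than in overexpression cells (log2 -0.59, SE 0.12, limma adjusted p = 0.00971). Against overexpression the call held whichever of the 9 arrays was left out, and against wild type it was lost without wild type replicate 2 alone (adjusted p = 0.0509). All 4 tested probe sets were below 0 in both comparisons of knockdown, and 2 passed in each, though the smallest difference against wild type was -0.09. With all probe sets of the gene averaged, dim ones included, the values were -0.11 against wild type and -0.23 against overexpression, and neither passed (limma adjusted p = 0.711 and 0.407).

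**Figure D2:**
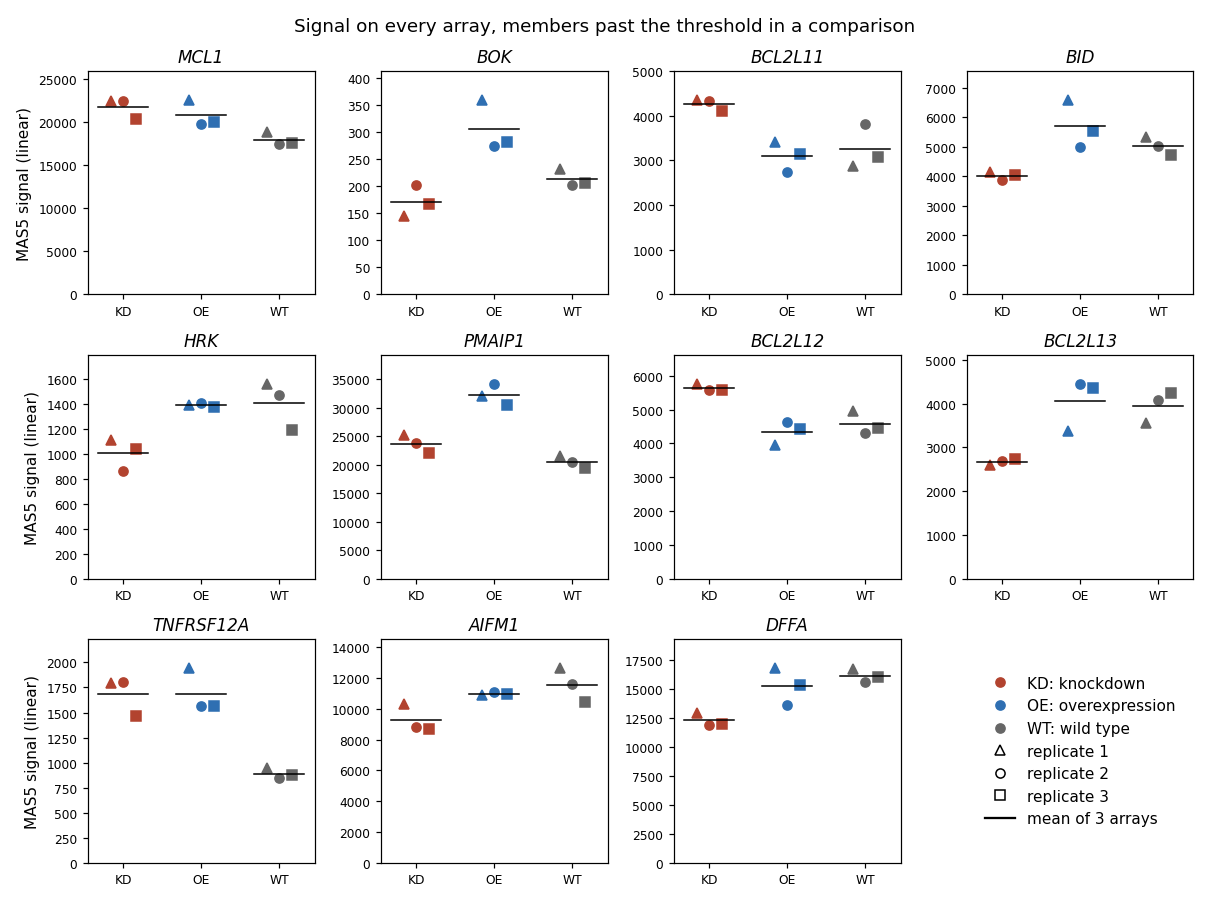
Linear signal (vertical axis, from 0) on every array for the 11 members past the threshold in a comparison, by group (KD knockdown, OE overexpression, WT wild type), with replicate 1 as triangles, replicate 2 as circles and replicate 3 as squares, and a bar at the mean of 3 arrays. TNFRSF12A is high in both treated groups, PMAIP1 is highest in overexpression, and BCL2L13, HRK, BID, AIFM1 and DFFA are lowest in knockdown.

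None of the 5 tested caspase genes passed on its brightest probe set in any comparison, where 19.4%, 18.4% and 0.631% of all genes did, and at an unadjusted p under 0.05 there was 1, CASP8 between knockdown and overexpression. CASP8, the initiator of the extrinsic route, had signals of 861, 1453 and 1149 in knockdown arrays, 1353, 1713 and 1814 in overexpression arrays and 995, 1271 and 1534 in wild type arrays. The groups overlapped, and the difference between knockdown and overexpression was -0.52 (95% interval -0.99 to -0.04, limma adjusted p = 0.134, and 0.0129 with the replicate block). CASP2, an initiator also linked to the PIDD1 complex, had an interval of -0.05 to 0.31 for knockdown against wild type, the narrowest among the 5 caspases, with signals of 15076 to 17067 in knockdown, 14356 to 17113 in overexpression and 14432 to 14826 in wild type arrays. CASP9, the initiator of the intrinsic route, ran from 1306 to 1768 in knockdown, 1264 to 1990 in overexpression and 1579 to 1847 in wild type arrays. CASP6, an executioner, ran from 4517 to 6451, 4165 to 6170.2 and 4578 to 7073 in the same order of groups, and CASP10, an initiator akin to CASP8, from 200.5 to 227, 264 to 318 and 191 to 372.

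CYCS, the gene of cytochrome c, had signals of 67298, 76279 and 70004 in knockdown arrays, 63445, 70644 and 67422 in overexpression arrays and 59851, 71505 and 76182 in wild type arrays. The groups overlapped, and the 95% intervals of its log2 differences were -0.15 to 0.24 for knockdown against wild type, -0.11 to 0.28 for knockdown against overexpression and -0.23 to 0.16 for overexpression against wild type. APAF1, the scaffold of the apoptosome, had 1398, 2497 and 2216 in knockdown arrays, 1436, 2361 and 2051 in overexpression arrays and 1425, 2396 and 2509 in wild type arrays. In every group its replicate 1 array was low, by 0.72 on the log2 scale against the other 6 arrays, and the intervals between groups were wide, from -0.64 to 0.54 for knockdown against wild type.

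XIAP, which blocks active caspases directly, BIRC2, a ubiquitin ligase of tumour necrosis factor signalling, and BIRC6, a large ubiquitin-conjugating inhibitor, did not pass in any comparison, nor did the mitochondrial antagonists DIABLO and HTRA2. XIAP ran from 8367 to 10121 in knockdown, 7845 to 10864 in overexpression and 7581 to 10295 in wild type arrays, with a 95% interval of -0.26 to 0.38 for knockdown against wild type. BIRC2 had 10942, 11144 and 10335 in knockdown arrays, 10949, 14384 and 11672 in overexpression arrays and 11846, 13209.9 and 11895 in wild type arrays. Its knockdown arrays lay below the wild type ones, and the difference of -0.19 did not pass (limma adjusted p = 0.246). BIRC6 ran from 3648 to 4152 in knockdown, 3464 to 3924 in overexpression and 3381 to 4221 in wild type arrays. DIABLO had 12018, 12261 and 10661 in knockdown arrays, 12836, 12694 and 13701 in overexpression arrays and 12487, 13267 and 11656 in wild type arrays, and HTRA2 ran from 4575 to 5325, 4187 to 5671 and 4339 to 5741. These 3 genes had 95% intervals within -0.35 and 0.32 in all 3 comparisons.

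TNFRSF12A, the receptor of the cytokine TWEAK, which has no death domain of its own, had signals of 1798, 1803 and 1465 in knockdown arrays, 1941, 1564 and 1564 in overexpression arrays and 942, 847 and 878 in wild type arrays. All 6 treated arrays lay above the wild type arrays. It rose 1.89-fold after knockdown (log2 0.92, SE 0.14, n = 3 per group, limma adjusted p = 0.00197) and 1.89-fold after overexpression (log2 0.92, limma adjusted p = 0.0153). Between knockdown and overexpression the difference was 0.00 (95% interval -0.30 to 0.30). The rise after knockdown held whichever of the 9 arrays was left out, and that after overexpression ended without overexpression replicate 1 or 3 or wild type replicate 2 or 3 (adjusted p up to 0.0809). With wild type cells that were untreated, as the design text has it, transfection and MOF cannot be told apart here.

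TNFRSF1A, the main receptor of tumour necrosis factor, ran from 1999 to 3294 in knockdown, 2239 to 3000.1 in overexpression and 1866 to 2416 in wild type arrays, and TNFRSF21, a death receptor expressed in neurons and elsewhere, from 1439 to 2265, 1807 to 2401 and 1837 to 2166. Both overlapped in all 3 comparisons. Of the adaptors, FADD, TRADD and CFLAR, the last encoding the CASP8 regulator FLIP, none passed. FADD, which joins the receptors to CASP8, ran from 4365 to 5481 in knockdown, 5060.1 to 5575 in overexpression and 4435 to 6122 in wild type arrays, and TRADD, which binds TNFRSF1A, from 908 to 1321.5, 872 to 1309 and 1073 to 1333 in the same order of groups. CFLAR had 1640, 1674 and 1720.4 in knockdown arrays, 1889.5, 2078 and 1800.5 in overexpression arrays and 1886, 2205 and 1895 in wild type arrays. Its knockdown arrays were the 3 lowest, at -0.25 against wild type (95% interval -0.49 to 0.00, limma adjusted p = 0.165), but its 12 tested probe sets did not go one way, with 7 above and 5 below 0.

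DFFA, the inhibitor and chaperone of the nuclease DFFB, had signals of 12970.1, 11927 and 11956 in knockdown arrays, 16782, 13600.1 and 15366 in overexpression arrays and 16738, 15627 and 16073 in wild type arrays. The knockdown arrays were the 3 lowest. It fell 1.32-fold after knockdown against wild type (log2 -0.39, SE 0.09, limma adjusted p = 0.0122) and by 0.31 against overexpression (limma adjusted p = 0.0367). The call against wild type ended without knockdown replicate 2 alone (adjusted p = 0.0505), and that against overexpression without knockdown replicate 2 or 3, overexpression replicate 1 or 3 or wild type replicate 2 or 3 (adjusted p up to 0.12). Its probe sets disagreed, and their average, at -0.15 against wild type and -0.20 against overexpression, did not pass (limma adjusted p = 0.225 and 0.104). Of the others, 1 had -0.24 (limma adjusted p = 0.21) and 1 had 0.20 (limma adjusted p = 0.292) against wild type, the last with 5346, 5458 and 5312 in knockdown arrays, 5082, 6212 and 6955 in overexpression arrays and 4906, 4995 and 4193 in wild type arrays.

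AIFM1, a mitochondrial flavoprotein that can move to the nucleus during cell death, had signals of 10279.7, 8801 and 8658 in knockdown arrays, 10892, 11089 and 10965 in overexpression arrays and 12618, 11617 and 10423 in wild type arrays. It fell by 0.32 against wild type (SE 0.09, limma adjusted p = 0.0407), a call that ended without knockdown replicate 2 or 3, wild type replicate 1 or 2 or overexpression replicate 3 (adjusted p up to 0.136). Against overexpression it was at -0.25 (limma adjusted p = 0.0985, and 0.019 with the replicate block). DFFB, the nuclease itself, and ENDOG, a mitochondrial nuclease, did not pass. DFFB had 1738, 1719.8 and 1749 in knockdown arrays, 2099, 1872 and 2056 in overexpression arrays and 2027, 1904 and 1649.6 in wild type arrays, and ENDOG ran from 2056 to 2370.3, 2057 to 2099 and 1779.5 to 2035.

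The probe sets of a gene read different parts of its transcripts, and 22 members had more than 1 tested. In the plot of all tested probe sets for 7 members, those of PMAIP1, BID and MCL1 lay on 1 side of 0 within each of the 3 comparisons. Those of HRK and BCL2L13 did so in both comparisons of knockdown, and those of BCL2L11 and DFFA each held an exception there.

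**Figure D3:**
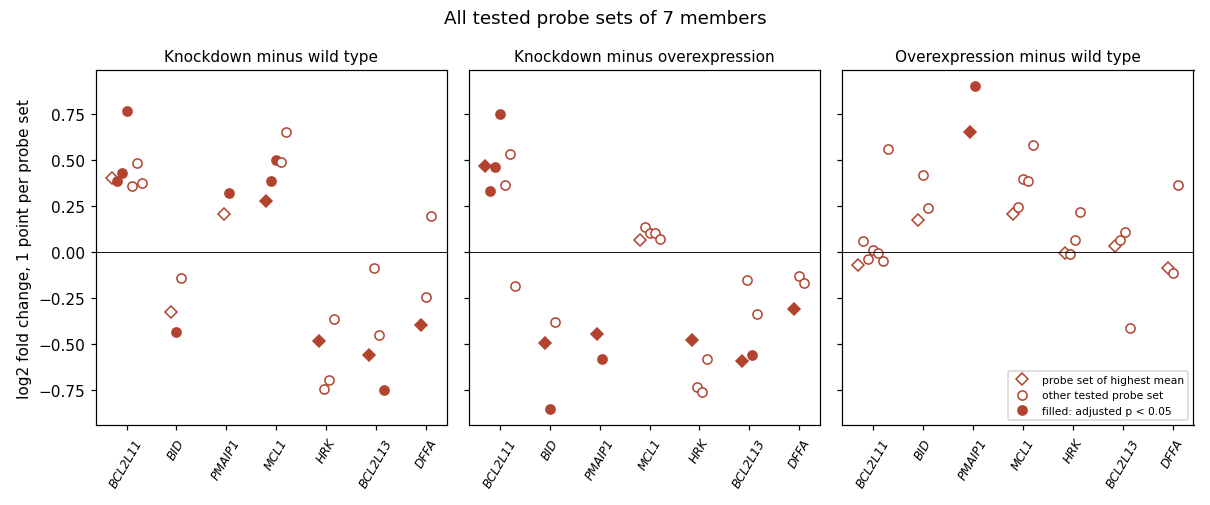
Log2 fold change (vertical axis) of each tested probe set of 7 members in the 3 comparisons, with diamonds for the probe set of highest mean, circles for the others and filled symbols for adjusted p under 0.05. All 7 probe sets of BCL2L11 and all 5 of MCL1 are above 0 for knockdown against wild type, and 1 of the 3 of DFFA is above 0 where the others are below.

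Differences within replicate 1 were set beside those within replicates 2 and 3, since the replicate 1 arrays stood apart. For each of the 17 calls made on the members the sign was the same in both parts. PMAIP1 after overexpression had 0.57 in replicate 1 and 0.69 in replicates 2 and 3, TNFRSF12A after knockdown 0.93 and 0.91, and BCL2L13 after knockdown -0.45 and -0.61 against wild type. These arrays are among those that made the calls.

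**Figure D4:**
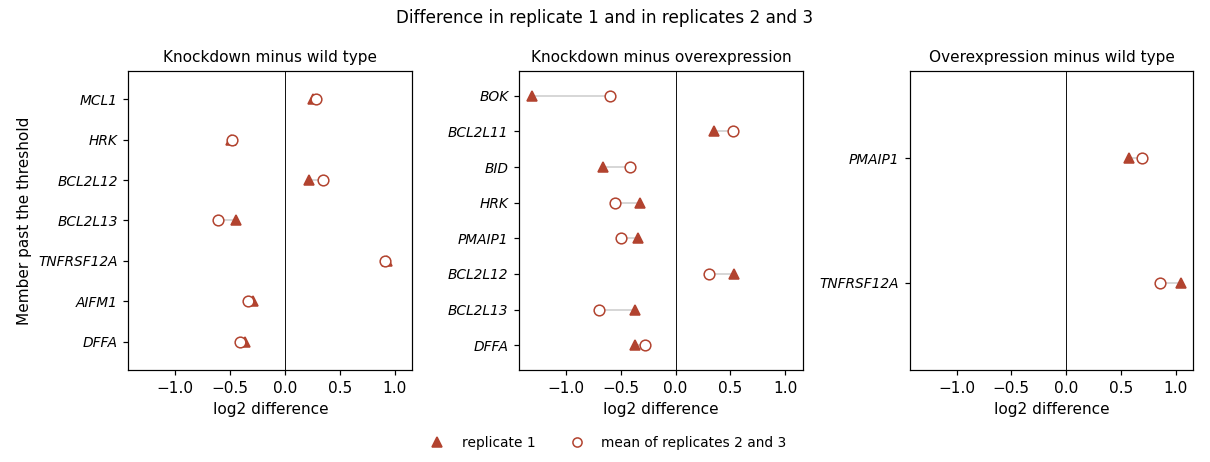
Log2 difference (horizontal axis) in replicate 1 (triangles) and between means of replicates 2 and 3 (circles) for each member past the threshold, in the 3 comparisons. Each pair of symbols lies on the same side of 0, and BOK between knockdown and overexpression is farthest apart, at -1.31 and -0.60.

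Beside the members, 54 further apoptosis genes were followed, of which 35 were tested. Each was read from its brightest probe set. Unlike those of the members, their calls were not followed through left-out arrays or other probe sets. After knockdown 8 of these rose against wild type and 2 fell, or 28.6% of them beside 19.4% of all genes. Against overexpression 6 were higher and 2 lower, or 22.9% beside 18.4%. None passed after overexpression in the limma fit (5 at unadjusted p under 0.05). TNFRSF10B, a receptor of the death ligand TRAIL, had signals of 11760.3, 13144 and 12386 in knockdown arrays, 8472, 9481 and 9797 in overexpression arrays and 7082, 8058 and 8554 in wild type arrays, and rose by 0.66 (SE 0.09, limma adjusted p = 0.00161). FAS, the receptor of the FAS ligand, had 2701, 2609.7 and 2549 in knockdown arrays, 1639, 1194 and 1431 in overexpression arrays and 1582, 1760.1 and 1730.1 in wild type arrays. It rose by 0.63 against wild type (limma adjusted p = 0.00861) and was higher by 0.89 against overexpression (limma adjusted p = 0.00167). PIDD1, a scaffold for the activation of CASP2, had 1945, 1655 and 1925 in knockdown arrays, 1227, 748 and 895 in overexpression arrays and 1043, 894 and 763 in wild type arrays, and rose by 1.04 (limma adjusted p = 0.00501). The knockdown arrays of both genes lay above the 6 others. The effector gene BAX rose by 0.48 (limma adjusted p = 0.00613) and DAXX, a FAS-binding protein and histone chaperone, by 0.59 (limma adjusted p = 0.00544). BIRC5, the gene of survivin, which is needed for mitosis, rose by 0.33 (limma adjusted p = 0.00963). DEDD, which carries a death effector domain, had 3537, 4060.2 and 3820.2 in knockdown arrays, 6445, 6065 and 5550 in overexpression arrays and 7067, 5404 and 6158 in wild type arrays, and fell by 0.70 (SE 0.11, limma adjusted p = 0.00283). BNIP3L, a mitochondrial receptor for autophagy, fell by 0.52 (limma adjusted p = 0.00725).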

How the data were processed

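Total RNA of 9 samples was isolated with a column kit, per the labels' protocols, and each was read on 1 array. The authors deposited a linear intensity for each probe set. MAS5 is the tool named in the submitters' processing notes, with version and settings not given in the sources used here. All 9 arrays had the same 2% trimmed mean signal (1500.2), so a shift shared by all genes would not show. Signals were set to log2(signal + 1) with a pseudocount of 1. After 62 control probe sets were left out of 54675, the 27307 whose mean reached the median of all (7.56, a signal of about 188) were tested with limma 3.58.1 in R 4.3.3 (eBayes with a trend, 6 residual degrees of freedom, all 9 arrays in 1 fit, two-sided, threshold 0.05 on the Benjamini-Hochberg adjusted p). The fit was tested on simulated data. The number of arrays limits the precision. Samples were grouped by their titles. Gene names came from GEO's annotation of the platform, and only probe sets with 1 symbol (41097, with 1801 having several and 11777 none) were used. A gene stood for by several probe sets was read from that of the highest mean. Members, lists and tests were chosen with earlier results of these data known. Values on every array are given for each member past the threshold in a comparison, and of the further apoptosis genes up to 8 past it were named. Members not past the threshold are given by values or ranges. Deviations from group means correlated between arrays of the same replicate number by more than 0.1 in all pairs that hold a knockdown array (0.106 to 0.362). Calls changed by the replicate block are given for those comparisons, and for BIK after overexpression. In 1 pair of overexpression with wild type the correlation was 0.083. Between replicates 2 and 3, pairs of unlike number gave 0.029 to 0.180 with a knockdown array, and 0.095 and 0.284 for overexpression with wild type. Pairs of replicate 1 with another number were all negative. A pairing by number beyond replicate 1 is therefore not clear, which limits the p-values from the block. Each array left out in turn, other fits, scalings, filters and summaries of probe sets were tried as alternatives. Figures were drawn with matplotlib 3.10.9.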

Additional observations from a re-analysis of the deposited data

How the results depend on the processing

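Of the 17 calls on members, none changed direction under any alternative run, and those of PMAIP1 (overexpression against wild type, and knockdown against overexpression) and of TNFRSF12A (knockdown against wild type) passed under all 18. Leaving out each array in turn gave 25 to 97 probe sets for overexpression against wild type (130 over all arrays), 2213 to 4624 for knockdown against wild type (4289) and 2040 to 4168 for knockdown against overexpression (3963), and 1 to 2, 2 to 9 and 2 to 7 members called. With the replicate number as a block, whose pairing is described with the processing, the counts were 1022, 7637 and 7334, with a term for replicate 1 alone 1109, 7706 and 7425, and both called 3, 10 and 11 members, BIK being the further one after overexpression. From replicates 2 and 3 alone 220 probe sets passed after overexpression. With only the 2 groups in the fit 27 probe sets and 1 member passed after overexpression. Without a trend it was 70 probe sets after overexpression, and 4 and 5 members in the comparisons of knockdown with wild type and with overexpression. Without the filter on dim probe sets 3 and 5 members passed there. With all probe sets of a gene averaged, dim ones included, 62, 1924 and 1900 of 10898 genes passed, with 5 members between knockdown and overexpression. MCL1 then lost its call at 0.35 against wild type (0.28 from the brightest probe set), BCL2L13, HRK and DFFA lost theirs at -0.11, -0.23 and -0.15 (-0.56, -0.48 and -0.39) and also against overexpression, and BOK gave no value. A pseudocount of 32 and quantile normalization each left the count of members within 1.5 times. The cause of these differences was not tested.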

Other observations

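Some probe sets other than the brightest of a member moved where the brightest did not. A second probe set of CASP9 had signals of 1071, 1060.4 and 1159.7 in knockdown arrays, 1575, 1328 and 1477 in overexpression arrays and 1736, 1372 and 1491 in wild type arrays, and fell by 0.48 against wild type (limma adjusted p = 0.0311). One of the 7 probe sets of CASP2 had 3916, 4436 and 4153 in knockdown arrays, 3448, 3452 and 3669 in overexpression arrays and 3514, 3291 and 3008 in wild type arrays, and rose by 0.35 (limma adjusted p = 0.033). A probe set of CYCS had 605, 579 and 797 in knockdown arrays, 1058, 1149 and 1098 in overexpression arrays and 598, 599.7 and 846 in wild type arrays. It was lower in knockdown than in overexpression cells by a log2 difference of -0.75 (limma adjusted p = 0.0201). Its difference of 0.71 between overexpression and wild type did not pass (limma adjusted p = 0.144).

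The replicate 1 arrays lay apart from the 6 others, all above or all below, for 8 of the 37 members, beside 11% of all genes. APAF1, CYCS, BIRC6 and XIAP were lower in replicate 1, by -0.72, -0.18, -0.20 and -0.35 on the log2 scale, and CASP6, HTRA2, TNFRSF21 and FADD higher, by 0.49, 0.27, 0.31 and 0.25. None of these 8 passed in a comparison between groups on its brightest probe set.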
